A study of Mus musculus with 76 samples.

Results

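Regulatory T cells (Treg) sorted from the thymus were compared between mice of 120 days (d120) and of 30 days (d30) of age. The members are the 12 libraries labelled thymic Treg, of 76 libraries in the series, and they were taken by their sample titles alone. Each genotype gave 3 libraries at each day: mice labelled Sod1Mut, called SOD1 here, and wild-type (WT) mice. The strain entry of all 12 libraries, WT included, is SOD1-G93A, the name of a line that carries a transgene of mutant human SOD1 and serves as a model of amyotrophic lateral sclerosis. The labels name no treatment for any of them. Thymi were digested, the cells stained and sorted by flow cytometry, and total RNA copied with the SMARTseq v4 low input kit, which reads full-length transcripts from small inputs. The 11 libraries labelled CD4, sorted from the thymus of the same genotypes on the same days (2 of WT at d30, 3 of each other group), served as the comparison. The labels do not say whether libraries came from separate mice or from pools, so p-values measure the spread between these libraries, which may be technical. Every library belongs to 1 day, and whatever differed between the preparations of the days cannot be told apart from age.

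Treg cells restrain other lymphocytes and depend on the transcription factor Foxp3 and on interleukin 2, which they bind through the receptor chain Il2ra (CD25). Many arise in the thymic medulla from CD4 thymocytes that meet self antigen strongly, while others return from the periphery to the thymus as activated, mature cells. The thymus is largest in young mice and shrinks with age, and its output of new T cells falls.

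The day difference was the mean of the differences in both genotypes. It was tested with the quasi-likelihood test of edgeR on 14824 genes and is given as a log2 fold change ± SE, positive where d120 was higher, with Benjamini-Hochberg adjusted p over all genes tested and a threshold of 0.05. Levels are in CPM, read counts scaled to a common library total, and a fitted fold change need not equal the ratio of 2 medians. A gene was called with a dispersion estimated for each gene. The words rose and fell are kept for genes that were also called with a dispersion taken from the trend over all genes, which called fewer. Since levels are shares of the RNA of a sorted sample, fewer cells of a type and less RNA per cell cannot be told apart.

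Foxp3 (chrX:7573644-7595245, plus strand, mm10) stood at 34.8 to 77.6 CPM in the Treg libraries of d30, with a median of 50.3, and at 72.5 to 258 CPM in those of d120, with a median of 112. It rose by 1.32 ± 0.26 (adjusted p = 5.39e-06). The highest d30 library lay just above the lowest d120 library, so the groups overlapped slightly. Il2ra (chr2:11642807-11693193, plus strand) was at 568 to 768 CPM at d30, median 699, and at 411 to 710 CPM at d120, median 514. Its change of -0.35 ± 0.14 was called with a dispersion per gene (adjusted p = 0.0425) and not with the trended one (adjusted p = 0.0753), and the days overlapped. Both markers set the label apart from the CD4 libraries: scaled together, the CD4 libraries held 7.71 to 22.7 CPM of Foxp3 and at most 34.8 CPM of Il2ra. The Treg libraries were not free of other transcripts. Cd8a, a coreceptor chain that mature Treg cells lack, was at 121 to 181 CPM in all 12 of them.

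The libraries held 1944589 to 9691356 counts at d30 and 3241250 to 34151147 at d120 (difference of means, two-sided exact permutation p = 0.121, n = 6 and 6). Mitochondrially encoded genes took 1.33 to 1.47% of counts at d30 and 1.05 to 3.81% at d120 (exact permutation p = 0.145, n = 6 and 6), and WT d120 2, WT d120 3 and SOD1 d120 3 were the 3 libraries above 3%. Sod1 was at 42.5 to 87.1 CPM in WT and 277 to 845 CPM in SOD1 libraries, so its level went with the labelled genotype. In these counts, reads of the human transgene cannot be told apart from those of the mouse gene. The Y-linked gene Ddx3y was at 133 to 307 CPM in all 12 libraries.

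Across the genes tested 5248 were called between the days (35.4%), 2763 higher (18.6%) and 2485 lower (16.8%) at d120, and 2132 of them by at least 2-fold (14.4%). With the trended dispersion 4433 were called (29.9%), all of them in the same direction. All 6 libraries of 1 day lay on the same side of all 6 of the other for 2640 genes (17.8%), 1356 higher (9.15%) and 1284 lower (8.66%). The median change over all genes tested was 0.006. Of the 5248 genes 5227 changed with the same sign in both genotypes. They were called on the mean of both changes, which itself favours a shared sign. This count therefore does not measure agreement between the genotypes. A list of genes is described below by its counts and its median, to be read beside these shares.

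**Figure D1:**
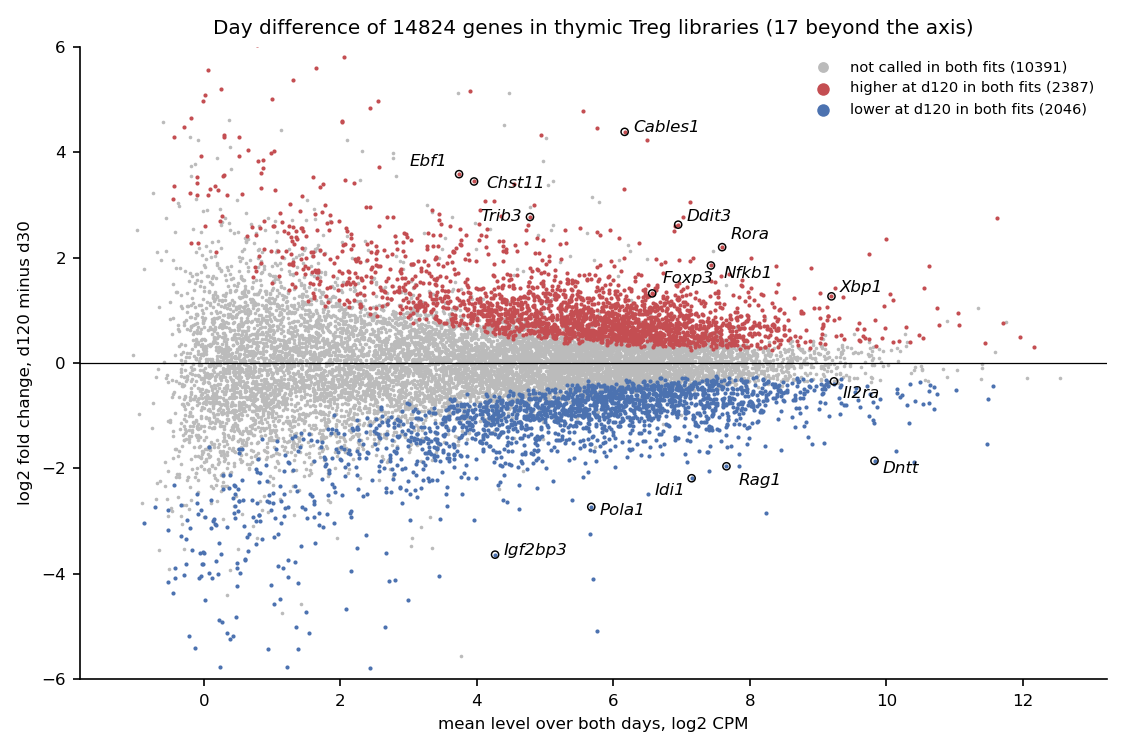
Each point is 1 of the 14824 genes tested, with its mean level in CPM on a log axis and its log2 fold change between d120 and d30 thymic Treg libraries; 2387 genes were higher and 2046 lower in both fits. Changes in both directions are seen at all levels. The named genes run from a small change, that of Il2ra, to changes among the largest.

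The gene with the smallest p was Cables1, which codes for an adaptor of cyclin-dependent kinases. It stood at 3.74 to 11 CPM at d30, median 6.45, and at 102 to 178 CPM at d120, median 137, and rose by 4.39 ± 0.25 (adjusted p = 1.31e-62). Every d120 library was far above every d30 library. Nfkb1 (chr3:135584655-135691547, minus strand), which codes for the p50 subunit of the transcription factor NF-kappaB, was at 64.4 to 82.8 CPM at d30 and at 196 to 322 CPM at d120. It rose by 1.85 ± 0.14 (adjusted p = 6.64e-38), and so did Baiap2 (2.49), Tnfrsf26 (2.52), Chst11 (3.45), Ramp3 (2.60) and Tcf7l2 (2.43). Ebf1, a factor of B cell identity, stood at 0 to 3.40 CPM at d30 and 15.3 to 33.9 CPM at d120, a rise of 3.59. Apoe, the lipid carrier apolipoprotein E, stood at 8.31 to 80.7 CPM, median 28.4, and then at 164 to 328 CPM, median 218, and rose by 2.77 ± 0.42.

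In the other direction Pola1 (chrX:93304767-93632155, minus strand), the catalytic subunit of DNA polymerase alpha, which starts new DNA strands, led the list. It stood at 70.4 to 99.8 CPM at d30, median 90.1, and at 10.3 to 19.7 CPM at d120, median 12.7, and fell by 2.73 ± 0.18 on the log2 scale (adjusted p = 6.51e-47). The days did not overlap. Tln1, which codes for talin and links integrins to the cytoskeleton, was at 176 to 242 CPM at d30 and 63.5 to 84.4 CPM at d120, with a change of -1.48. Igf2bp3, an RNA-binding protein gene of fetal and neonatal blood cells, was at 29.4 to 39.8 CPM at d30 and 0 to 7.85 CPM at d120, a change of -3.64 ± 0.50. The other genes with the largest falls included Uaca (-2.98), Ptgs2 (-2.77), Slc39a10 (-2.72) and Dzip3 (-2.60).

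Of 20 tested genes that define Treg cells, 10 were higher and 5 lower at d120, with a median of 0.60 (0.94 in WT and 0.19 in SOD1), and 9 and 3 were called in both fits. The costimulatory receptor gene Tnfrsf4 (OX40) rose from 55.2 to 133 CPM, median 83.4, to 148 to 533 CPM, median 208, a change of 1.55 ± 0.27 (adjusted p = 2.17e-07). Il2rb, the signalling chain of the interleukin 2 receptor, rose from 43.3 to 88.8 CPM, median 72.9, to 102 to 375 CPM, median 146, a change of 1.36 ± 0.28 (adjusted p = 9.61e-06). For both, and for the ectonucleotidase gene Nt5e (CD73, 1.32 ± 0.28), all d120 libraries were above all d30 libraries. Lrrc32, which codes for GARP and holds latent TGF-beta on the surface of activated Treg cells, was at 19.9 to 33.0 CPM at d30 and 30.1 to 142 CPM at d120 and rose by 1.56 ± 0.33 (adjusted p = 2.93e-05). Tigit, an inhibitory receptor, rose by 1.90 ± 0.44 from 3.52 to 8.17 CPM to 7.61 to 36.0 CPM. Ikzf2 (Helios, 1.07 ± 0.30), the checkpoint receptor gene Ctla4 (0.72 ± 0.17) and Tnfrsf9 (4-1BB, 1.2 ± 0.29) also rose, each with overlap between the days.

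The core genes that fell were Nrp1, Socs2 and Itgae. Nrp1, the neuropilin that marks Treg cells of thymic origin, was at 61.2 to 84.5 CPM at d30, median 65.2, and 33.0 to 55.7 CPM at d120, median 36.9, and fell by 0.79 ± 0.16 on the log2 scale (adjusted p = 8.17e-06). Socs2, a feedback inhibitor of cytokine signals, was at 48.1 to 124 CPM and then at 20.8 to 46.8 CPM, and fell by 0.97 ± 0.24 (adjusted p = 0.000369). The days did not overlap for either of them. Itgae (CD103), the integrin chain that binds E-cadherin, fell by 0.95 ± 0.27 (adjusted p = 0.00212), with overlap. Tnfrsf18 (GITR) was at 0.66 and Lad1 at -1.04, both called with a dispersion per gene only. Izumo1r (-0.07), Entpd1 (-0.32), Gpr83 (0.23), Capg (0.54) and Gpr174 (-0.53) were not called. WT d120 1 was the highest library for Foxp3, Il2rb, Tnfrsf4, Tigit and Ctla4, and with each library left out in turn 9 to 11 of the 20 were higher and 4 to 5 lower, with medians of 0.32 (without WT d120 1) to 0.76.

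**Figure D2:**
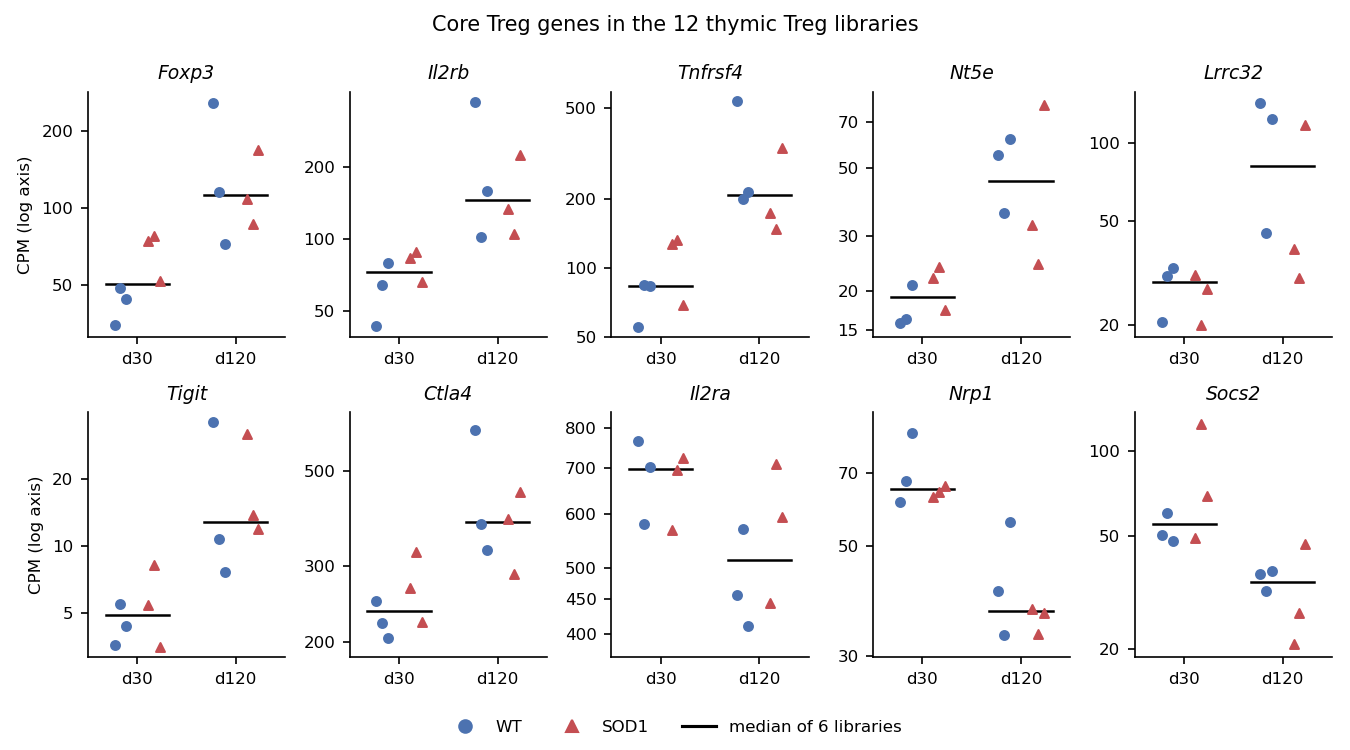
Levels of 10 core Treg genes in CPM on a log axis in the 12 thymic Treg libraries, with circles for WT, triangles for SOD1 and bars at the median of each day. Tnfrsf4, Il2rb and Nt5e lie higher at d120 and Nrp1 and Socs2 lower without overlap, while Foxp3 and Il2ra overlap between the days.

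Of 38 tested genes of mature, activated and recirculating Treg cells, 18 were higher and 5 lower (16 and 5 in both fits), with a median of 0.69. Without WT d120 1 these were 15 and 5, with a median of 0.42. Rora, a nuclear receptor gene of effector Treg cells, was at 48.9 to 88.9 CPM at d30, median 70.7, and at 200 to 502 CPM at d120, median 304, and rose by 2.20 ± 0.21 (adjusted p = 4.86e-24). Il1r2, the decoy receptor for interleukin 1, went from 19.1 to 32.8 CPM, median 22.2, to 50.4 to 112 CPM, median 97.7, and rose by 1.86 ± 0.21 (adjusted p = 8.03e-17). The transcription factor gene Maf rose by 2.13 ± 0.27 from 4.21 to 10.6 CPM to 20.4 to 55.0 CPM (adjusted p = 3.74e-13). None of these overlapped between the days, nor did the granzyme gene Gzmb (1.58 ± 0.23) or S100a10 (1.09 ± 0.16). Members that are activation genes of many T cells, such as Icos (1.05), Cd44 (0.91), Batf (0.98) and Gata3 (0.75), also rose. The 5 that fell were the TNF receptor gene Tnfrsf1b (-0.74), Fgl2 (-1.25), Itgb1 (-0.77), S100a4 (-0.85) and the AP-1 gene Fosl2 (-0.93). The cytokine gene Il10 (0.70), Klrg1 (0.20), Ccr6 (0.72) and Cxcr3 (1.18) were not called. The summed level of the list was 2265 to 3108 CPM at d30 and 3141 to 5326 CPM at d120, without overlap.

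Of 17 tested receptors and factors of homing and exit from the thymus, 7 were higher and 2 lower (6 and 2 in both fits), with a median of 0.54. Without SOD1 d120 3 the counts were 6 and 6, without SOD1 d30 3 they were 6 and 4, and without WT d120 1 they were 6 and 4 with a median of 0.25. S1pr1, the sphingosine 1-phosphate receptor by which mature thymocytes leave, was at 17.3 to 32.2 CPM at d30, median 28.0, and at 48.9 to 207 CPM at d120, median 80.7. It rose by 1.93 ± 0.30 (adjusted p = 3.93e-09), without overlap. S1pr4 (1.4), its regulator Klf2 (0.72), the oxysterol receptor gene Gpr183 (0.76), Ccr9 (0.62) and Cxcr4 (1.07) rose as well. Itgal, the integrin chain of LFA-1, fell (-0.75 ± 0.13). Among costimulatory and checkpoint genes 11 of 22 were higher and 1 lower (10 and 1 in both fits), with a median of 0.57, and 2 were lower without SOD1 d120 3. Cd27, a receptor of the TNF family, was at 173 to 225 CPM at d30 and 338 to 459 CPM at d120 and rose by 0.89 ± 0.11 (adjusted p = 3.66e-14), and Tnfrsf25 (1.97) and Cd28 (0.84) rose too. Cd96 fell by 1.0 ± 0.20 on the log2 scale.

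Of 22 genes typical of double-positive thymocytes, the precursors that carry both CD4 and CD8, 10 were lower and 3 higher at d120 (10 and 2 in both fits), with a median of -0.52. Dntt (chr19:41029275-41059525, plus strand), the terminal transferase that adds bases to receptor joints, was at 1251 to 1570 CPM at d30, median 1436, and at 295 to 527 CPM at d120, median 390, and fell by 1.86 ± 0.15 (adjusted p = 5.23e-34). Rag1 (chr2:101638282-101649501, minus strand), a subunit of the recombinase, was at 230 to 394 CPM, median 326, and then at 64.6 to 98.2 CPM, median 88.0, and fell by 1.96 ± 0.14 (adjusted p = 9.04e-39). Both were separated between the days, as were Ptcra (-1.65), the precursor chain of the receptor, Themis (-1.59) and Arpp21 (-1.72). Cd4 itself fell by 0.69 ± 0.11, from 166 to 217 CPM to 104 to 132 CPM. Rag2 (-0.64), Cd8a (0.02) and Cd8b1 (-0.41) were not called. The summed level of the list was 4287 to 5228 CPM at d30 and 2333 to 3310 CPM at d120, without overlap, and the part of double-positive cells in these results was not tested.

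Of 20 genes of recent development and of Treg precursors, 8 were higher and 10 lower (6 and 8 in both fits), with a median of -0.20, and 5 were higher without WT d120 1. Cd24a, a surface marker of immature thymocytes, was at 1046 to 1242 CPM at d30, median 1119, and at 494 to 684 CPM at d120, median 542, and fell by 1.0 ± 0.12 (adjusted p = 2.51e-15). Sox4 (-0.50) and Lef1 (-0.53) fell, while Ccr9 and Lztfl1 (1.11) rose. Among 30 genes of the T cell receptor (TCR) signalling machinery 6 were higher and 11 lower (5 and 10 in both fits), with a median of -0.02. Vav1, an exchange factor downstream of the receptor, was at 228 to 256 CPM at d30 and 62.1 to 118 CPM at d120 and fell by 1.26 ± 0.15 (adjusted p = 6.17e-15). The phosphatase gene Ptpn6 (-0.92), Lck (-0.41) and Cd3g (-0.54) fell, and Malt1 (1.03), Zap70 (0.54) and Ptpn22 (0.57) rose.

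Of 24 tested genes that TCR signals switch on within minutes to hours, 6 were higher and 7 lower in both fits, with a median of -0.10. Nr4a1, an orphan nuclear receptor gene used as a reporter of TCR strength, was at 293 to 323 CPM at d30, median 316, and at 95 to 245 CPM at d120, median 147, and fell by 1.05 ± 0.16 (adjusted p = 1.66e-09). Nfkbia, the NF-kappaB inhibitor, was at 292 to 460 CPM, median 349, and then at 546 to 997 CPM, median 770, and rose by 1.06 ± 0.14 (adjusted p = 3.98e-12). Nr4a3 (-0.97) and Dusp5 (-0.81) fell with the first, and Gadd45b (1.34) and Myc (0.68) rose with the second. Of 14 AP-1 genes 4 were higher and 6 lower (3 and 6 in both fits), with a median of -0.19. Fos fell from 421 to 647 CPM, median 530, to 76.7 to 416 CPM, median 131, a change of -1.64 ± 0.31 (adjusted p = 1.25e-06). Jun fell from 655 to 917 CPM, median 808, to 181 to 458 CPM, median 242, a change of -1.52 ± 0.21 (adjusted p = 9.42e-12). The days did not overlap for either gene. Mafg (1.53), Jdp2 (0.94) and Batf rose.

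Of 15 heat shock chaperone genes, whose products fold proteins, 3 were higher and 7 lower (3 and 6 in both fits), with a median of -0.37, which was -0.23 without SOD1 d120 1 and -0.02 without WT d30 1. The near-identical pair Hspa1a (-1.67) and Hspa1b (-1.89), between which reads cannot be assigned with certainty, fell together. Hsf1, the master factor of the heat shock response, rose by 1.03 ± 0.13, from 56.5 to 85.0 CPM to 122 to 219 CPM, and Hspb1 (1.99) and Bag3 (1.33) rose with it. The summed level of the list, 12910 to 22530 CPM at d30 and 7639 to 14890 CPM at d120, overlapped.

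Transcription factors of the T lineage gave 14 higher and 8 lower of 33 (14 and 7 in both fits), with a median of 0.42. Foxo1, a factor of quiescence and homing, was at 81.9 to 109 CPM at d30, median 98.6, and at 249 to 396 CPM at d120, median 305, and rose by 1.70 ± 0.14 (adjusted p = 7.01e-31). Klf13 rose by 1.64 ± 0.14, from 78.0 to 120 CPM to 200 to 365 CPM, and Bach2, a repressor of effector fate, by 1.58 ± 0.17, from 19.4 to 29.3 CPM to 59.9 to 101 CPM. These 3 were separated between the days. Foxp1 (1.1), Bcl6 (1.1) and Runx3 (0.96) rose, and Ets1 (-0.64) and Runx1 (-0.71) fell. Of 23 genes of common gamma chain cytokine signalling, the pathway of interleukins 2, 7 and 15, 9 were higher and 5 lower (9 and 4 in both fits), with a median of 0.35, which was 0.11 without WT d120 1 and 0.22 without SOD1 d120 3. Its transducer Stat5a (0.71), the STAT5 target Cish (1.36), Pim1 (1.0) and Il7r (0.43) rose, while the kinase gene Jak1 (-0.52) and the survival gene Bcl2 (-0.85 ± 0.13, from 168 to 244 CPM to 78.3 to 129 CPM) fell.

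Of 29 S phase genes, which copy DNA, 16 were lower and 2 higher at d120 (15 and 2 in both fits), with a median of -0.54. The helicase subunit gene Mcm2 was at 242 to 290 CPM at d30, median 283, and at 99 to 168 CPM at d120, median 132, and fell by 1.05 ± 0.10 (adjusted p = 1.27e-22). Uhrf1, which carries DNA methylation to the new strand, was at 366 to 525 CPM and then at 101 to 224 CPM, and fell by 1.57 ± 0.20. Both were separated, and Rrm1 (-1.18) fell too. Gins2 (0.67) and Cdt1 (0.66), which load and start the helicase, rose, and Pcna (-0.24) was not called. The summed level of the list was 4717 to 5597 CPM at d30 and 2934 to 3989 CPM at d120, without overlap.

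Of 25 genes of G2 and M phase, which divide the cell, 17 were lower and 1 higher (14 and 1 in both fits), with a median of -0.89. Top2a, the topoisomerase that untangles chromosomes, was at 237 to 342 CPM at d30, median 300, and at 92.3 to 179 CPM at d120, median 148, and fell by 1.08 ± 0.16 (adjusted p = 1.03e-09). The spindle motor gene Kif11 was at 87.3 to 148 CPM, median 132, and then at 35.4 to 65.8 CPM, median 52.9, and fell by 1.26 ± 0.17 (adjusted p = 1.13e-11). Tpx2 (-1.86), Bub1b (-1.70) and Cenpf (-1.52) fell further, and these 5 genes were separated between the days. The checkpoint kinase gene Bub1, at 30.6 to 57.8 CPM and then at 11.3 to 44.5 CPM, fell by 0.98 ± 0.26, and Hmmr, at 33.9 to 42.5 CPM and then at 10.5 to 37.2 CPM, by 1.06 ± 0.29, both with overlap. Ndc80 (0.71) rose, Mki67 was at -0.43, called with a dispersion per gene only, and Cdk1 (-0.43) was not called.

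The promoters of G2 and M phase genes often hold CCAAT boxes, which the factor NF-Y reads. The letters CCAAT, searched on both strands (on the other strand they read ATTGG) in the 250 bases before the start site, were found in 17 of the 21 tested members with a promoter in the RefSeq table (81%) and in 12 of the 14 called lower (85.7%), against 40.4% of 10226 tested genes and 37.5% of all 27025 promoters. The cell cycle homology letters TTTGAA were found in 7 of the 21 (33.3%), against 13.3% of the tested genes. A match is a run of letters, not a binding site. The promoters of 4 members that fell are shown as examples, and boxes of other members lie as close to the start. Stretches that share a run of 20 bases with a transcript of the gene were not used. Each is the 120 bases before the start site, 5′ to 3′ on the strand of the gene, from RefSeq on GRCm38.p6, with CCAAT or ATTGG in capitals. They lie at chr19:37376262-37376381 (Kif11, plus strand), chr11:99024190-99024309 (Top2a, minus strand), chr2:127831860-127831979 (Bub1, minus strand) and chr11:40733438-40733557 (Hmmr, minus strand).
Kif11: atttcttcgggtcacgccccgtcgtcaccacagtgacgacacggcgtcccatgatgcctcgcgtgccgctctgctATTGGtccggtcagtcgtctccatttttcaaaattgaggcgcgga
Top2a: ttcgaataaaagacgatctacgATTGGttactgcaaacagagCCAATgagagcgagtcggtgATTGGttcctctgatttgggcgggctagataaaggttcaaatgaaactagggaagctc
Bub1: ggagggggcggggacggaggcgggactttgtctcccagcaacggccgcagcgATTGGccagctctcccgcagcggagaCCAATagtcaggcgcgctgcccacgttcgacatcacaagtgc
Hmmr: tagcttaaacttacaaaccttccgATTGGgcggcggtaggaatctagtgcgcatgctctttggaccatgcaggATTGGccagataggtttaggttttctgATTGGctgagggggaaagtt
Kif11 has 1 box in this stretch, Bub1 has 2, and Top2a and Hmmr have 3 each.

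Cholesterol synthesis was the list with the most members lower and none higher: 11 of 19 genes were lower in both fits, and the median was -0.82. Idi1 (chr13:8885501-8892451, plus strand), an isomerase of the pathway, was at 158 to 306 CPM at d30, median 240, and at 35.4 to 70.7 CPM at d120, median 51.2, and fell by 2.19 ± 0.19 (adjusted p = 1.30e-28). Hmgcs1 (-1.43), Cyp51 (-1.33), Sqle (-1.2) and Insig1 (-0.93), the sensor that holds the pathway back when sterol is plentiful, fell as well. The pathway's transcription factor gene Srebf2 (0.15) and Msmo1 (-0.46) were not called. The summed level of the list was 1642 to 2402 CPM at d30 and 1096 to 1311 CPM at d120, without overlap.

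Of 19 genes of the integrated stress response, by which cells answer amino acid shortage and unfolded proteins through the factor ATF4, 8 were higher and 2 lower in both fits, with a median of 0.52, and all 10 were separated between the days. The median was 0.29 without SOD1 d120 1 and 0.30 without WT d120 2. With WT d120 2, WT d120 3 and SOD1 d120 3 as the only libraries of d120, 8 were higher and 4 lower, with a median of 0.13. Ddit3 (chr10:127290774-127296288, plus strand), which codes for the factor CHOP, was at 26 to 43.6 CPM at d30, median 34.4, and at 163 to 285 CPM at d120, median 207, and rose by 2.63 ± 0.17 (adjusted p = 6.26e-50). Trib3, a pseudokinase target of CHOP, was at 3.60 to 11.2 CPM, median 7.56, and then at 16.3 to 68.3 CPM, median 49.7, and rose by 2.77 ± 0.35 (adjusted p = 1.52e-13). Chac1, which degrades glutathione, was at 0 to 1.4 CPM at d30, median 0.324, and at 3.05 to 16.4 CPM at d120, median 8.93 (adjusted p = 4.91e-12). Asns (1.65), Xbp1 (1.27), Slc3a2 (0.94), Atf4 (0.72) and Aars (0.66) rose as well. The 2 that fell were Ppp1r15a (-1.02), which ends the response by restoring translation, and the serine synthesis gene Psat1 (-0.75). The chaperone gene Hspa5 (-0.20) and the transporter gene Slc7a5 (0.28) were not called.

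The letters TGATGNAA of the C/EBP-ATF site, read by heterodimers of ATF4, were found on either strand of the same 250 bases in 4 of 18 members with a promoter (22.2%) and in 3 of the 8 called higher (37.5%), against 2.4% of the tested genes and 3.91% of all promoters. The stretch of Chac1 with its match is shown, since its level was near 0 at d30. It is chr2:119350992-119351111 (GRCm38.p6, plus strand), bases 250 to 131 before the start site, with the match, on the other strand, in capitals.
Chac1: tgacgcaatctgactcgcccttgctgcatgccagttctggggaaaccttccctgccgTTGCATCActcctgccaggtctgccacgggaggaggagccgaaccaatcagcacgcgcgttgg
The match is 1 run in this stretch, and no statement on factor binding follows from it.

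**Figure D3:**
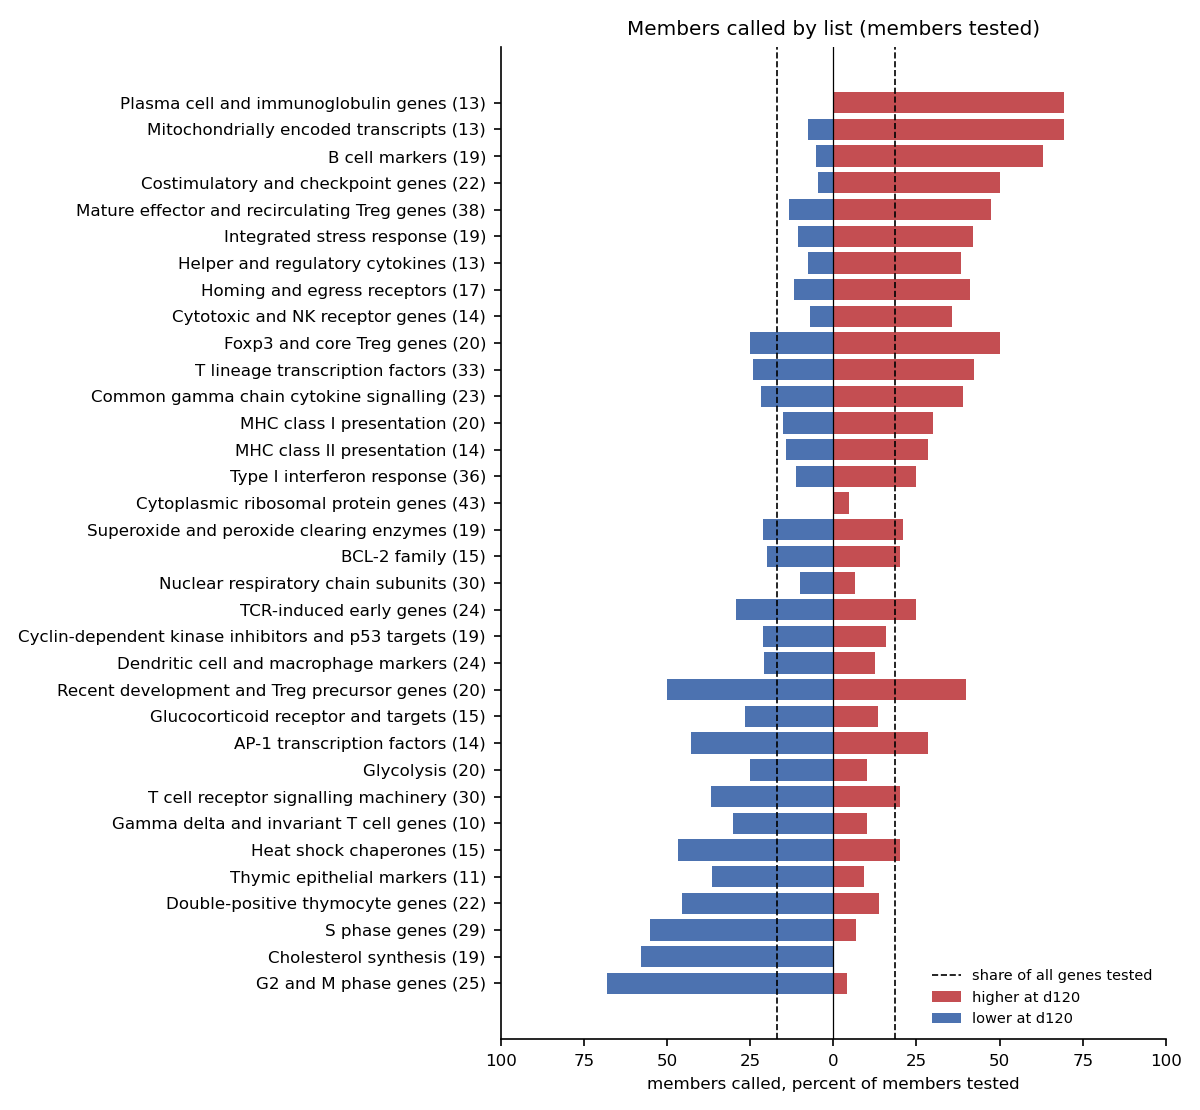
Members of each gene list with at least 10 tested genes that were higher or lower at d120, as a percent of the members tested, with dashed lines at the share of all genes tested, 18.6% higher and 16.8% lower. G2 and M phase, cholesterol and S phase lists extend furthest to lower, and mitochondrially encoded, plasma cell and B cell lists to higher.

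Bbc3, which codes for the death factor PUMA, was at 10.4 to 18.6 CPM at d30 and at 35.4 to 63.9 CPM at d120 and rose by 1.73 ± 0.21 (adjusted p = 6.18e-15), and Bax rose by 0.67. Bcl2l11, which codes for BIM, fell by 0.77 ± 0.11, and Mcl1 was at -0.31, so that over 15 genes of the BCL-2 family 3 were higher and 3 lower (2 and 3 in both fits, median -0.28). Among 19 cell cycle inhibitors and p53 targets 3 were higher and 4 lower (median -0.06), and Cdkn1a, which codes for p21, fell by 1.07 ± 0.13 from 112 to 153 CPM to 52.8 to 82.5 CPM. Of 15 glucocorticoid receptor genes and targets 2 were higher and 4 lower (median 0.07). Fkbp5, induced by glucocorticoids in many cells, was at 491 to 621 CPM at d30 and 188 to 271 CPM at d120 and fell by 1.2 ± 0.11 (adjusted p = 2.06e-23). Among 19 enzymes against superoxide and peroxide 4 were higher and 4 lower (4 and 3 in both fits, median 0.17, and 8 and 3 without SOD1 d120 3), with Hmox1 (2.12) higher and Prdx3 (-0.95) and Cat (-0.80) lower. Of 20 glycolysis genes 2 were higher and 5 lower (2 and 4 in both fits, median -0.19, and 9 lower without SOD1 d120 2 or 8 without WT d120 1), with Pfkfb3 at -1.05.

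Of 13 mitochondrially encoded transcripts 9 were higher and 1 lower (6 and 1 in both fits), with a median of 1.04. Their summed level was 10180 to 11950 CPM at d30 and 8254 to 33680 CPM at d120. With WT d120 1, SOD1 d120 1 and SOD1 d120 2 as the only libraries of d120, 4 were higher and 4 lower, with a median of -0.04, so the count rested on WT d120 2, WT d120 3 and SOD1 d120 3. Without SOD1 d120 3 alone 7 were higher and 1 lower, with a median of 0.47. mt-Nd3 fell by 0.70 ± 0.14 over all libraries, from 94.0 to 113 CPM to 54.2 to 81.6 CPM. Genes of the respiratory chain encoded in the nucleus gave 2 higher and 3 lower of 30 (median -0.04), with Sdha at -0.90 and Atp5b at -0.72. Cytoplasmic ribosomal protein genes gave 2 higher and 0 lower of 43 (1 and 0 in both fits, median 0.06). Without the 3 libraries the respiratory chain list had 10 higher and 3 lower (median 0.16) and the ribosomal list 23 higher and 0 lower (median 0.28). With these 3 as the only libraries of d120 the respiratory chain list had 1 higher and 16 lower (median -0.34) and the ribosomal list 0 higher and 14 lower (median -0.23), so both lists went opposite ways in the 2 sets of d120 libraries. With 1 library left out the respiratory chain list had 0 to 3 higher and 3 to 7 lower, with 7 lower without WT d120 1 or SOD1 d120 1, and the ribosomal list 0 to 9 higher and 0 to 2 lower, with 9 higher without SOD1 d120 3 and 6 without WT d120 3. Other lists whose higher or lower count moved by over 1.5 times without these 3 libraries were, with the counts higher and lower, the early TCR genes (5 and 12), homing receptors (9 and 5), costimulatory genes (13 and 3), cytotoxic genes (5 and 2) and interferon genes (13 and 10). The same held for the peroxide enzymes (9 and 4), cell cycle inhibitors and p53 targets (6 and 6), glucocorticoid targets (5 and 4), glycolysis (4 and 4) and MHC class II (2 and 2). Among markers of other cells it held for gamma delta T cells (1 and 6), dendritic cells and macrophages (3 and 8), thymic epithelium (1 and 7), fibroblasts and endothelium (1 and 1) and plasma cells (9 and 2). With these 3 as the only d120 libraries the lists that moved as much included core Treg genes (9 and 3), recent development (5 and 10), homing receptors (7 and 4), heat shock chaperones (3 and 4) and S phase (1 and 21). Cholesterol synthesis then had 1 and 13, peroxide enzymes 3 and 8, glycolysis 2 and 10, glucocorticoid targets 1 and 4, MHC class II 8 and 1, B cell markers 11 and 3, gamma delta T cells 1 and 6, and dendritic cells and macrophages 5 and 5.

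Of 36 interferon response genes 9 were higher and 4 lower (9 and 3 in both fits), with a median of 0.05. Xaf1 (1.19 ± 0.19) and Irf7 (0.65 ± 0.14) rose and Ifit2 (-1.0 ± 0.25) fell. MHC class I genes gave 6 higher and 3 lower of 20 (6 and 2 in both fits, median -0.01). H2-K1, a classical class I heavy chain, was at 908 to 1297 CPM at d30 and 1496 to 3290 CPM at d120 and rose by 1.05 ± 0.17 (adjusted p = 1.35e-08), H2-D1 rose by 0.72, and the peptide loading gene Tapbp fell by 0.62. H2-Q6 (1.48) and H2-Q7 (1.15) are near-identical copies, so their values are uncertain. Of 13 cytokine genes 5 were higher and 1 lower (3 and 1 in both fits, median -0.17): Ltb (1.01) and Tgfb1 (0.89), the source of TGF-beta, rose, and Ifng was at -1.33. Of 14 cytotoxic and NK receptor genes 5 were higher and 1 lower (3 and 1 in both fits, median 0.11), with Fasl (2.69) and Gzma (0.67) higher and the chemokine gene Ccl5, from 86.0 to 225 CPM to 27.4 to 64.8 CPM, lower (-1.47). Ncr1, which marks NK cells, was at 0 in 9 of the 12 libraries. With 1 library left out both the cytokine and the cytotoxic list had 3 to 5 higher and 1 to 2 lower.

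Of 19 B cell markers 12 were higher and 1 lower (11 and 1 in both fits), with a median of 1.56, and their summed level was 1307 to 3967 CPM at d30 and 5988 to 20070 CPM at d120, without overlap. Cd79a, a signalling chain of the B cell receptor, was at 6.01 to 25.5 CPM at d30, median 19.5, and 46.0 to 172 CPM at d120, median 92.9, and rose by 2.52 ± 0.33 (adjusted p = 1.02e-12). Ms4a1 (0.62) and Pax5 (0.95) were not called, and Spib fell by 1.53. The sum was carried by immunoglobulin, led by Igkc, at 265 to 1459 CPM and then at 3128 to 11660 CPM. Of 13 plasma cell and immunoglobulin genes 9 were higher and 0 lower (8 and 0 in both fits), with a median of 2.07 (1.24 without SOD1 d120 2 and 1.19 without WT d120 2) and sums of 757 to 2195 CPM at d30 and 2286 to 7920 CPM at d120. The part of these cells in the other results was not tested.

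Dendritic cell and macrophage markers gave 3 higher and 5 lower of 24 in both fits (5 and 5 without SOD1 d30 1), with a median of -0.16 and sums of 1067 to 2282 CPM at d30 and 1060 to 1878 CPM at d120, which overlapped. The complement genes of macrophages, C1qa (1.95), C1qb (2.17) and C1qc (2.32), rose together, and Mpeg1 (-2.08), Xcr1 (-1.80) of cross-presenting dendritic cells and Siglech (-1.03) of plasmacytoid ones fell. Of 20 thymic epithelial markers 11 were tested, with 1 higher and 4 lower and a median of -0.78, and their sums were 165 to 413 CPM at d30 and 201 to 275 CPM at d120. Krt5, Krt14, Foxn1 and Psmb11, which define this epithelium, were at most at 10.4, 7.58, 3.09 and 1.53 CPM. Epcam, a further epithelial marker, was at 87.8 to 154 CPM in all 12 libraries. Krt8 was at 0.486 to 59.0 CPM at d30, median 3.82, and at most 0.553 CPM at d120. Of 10 genes of gamma delta and invariant T cells 1 was higher and 3 lower in both fits (median -0.52, with 5 or 6 lower without SOD1 d120 2, SOD1 d120 3 or WT d120 3), the constant region gene Tcrg-C1 (-1.57) among the 3, whose near-identical copies make its value uncertain. Fibroblast and endothelial (4 tested), adipocyte (2 tested) and erythroid or platelet markers (6 tested) had 1 lower, 0 called and 1 higher. The part of all these cells in the results above was not tested.

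**Figure D4:**
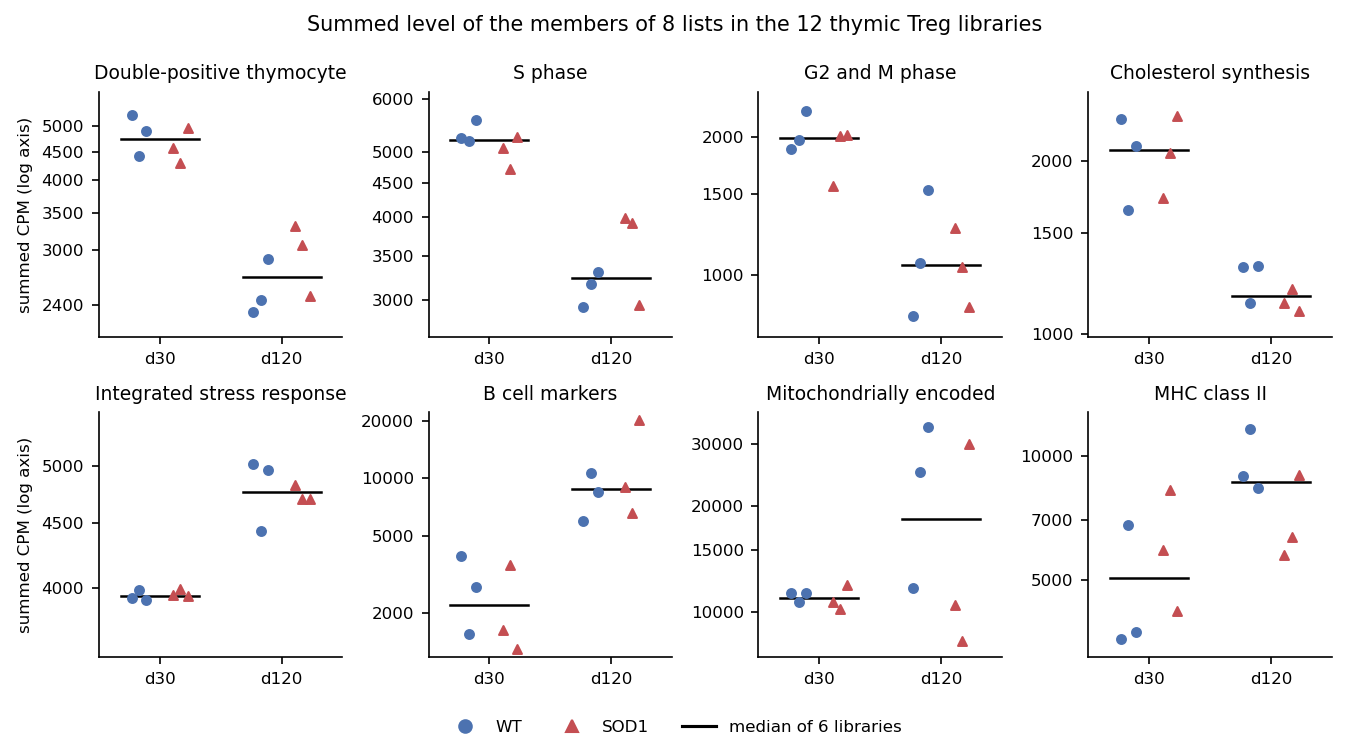
Summed levels in CPM of 8 gene lists in each of the 12 thymic Treg libraries, circles for WT and triangles for SOD1. B cell sums are higher at d120 and S phase, double-positive thymocyte and cholesterol sums lower in every library, while mitochondrially encoded sums overlap and are high in 3 libraries of d120.

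Within each genotype the same test called 3218 genes in WT (21.7%, with 11.7% higher and 10.1% lower) and 2809 in SOD1 (18.9%, with 10.3% higher and 8.65% lower), of which 1890 were called in both with the same sign. The day difference itself differed between the genotypes for 9 genes (0.0607%), 6 with a higher change in SOD1 (0.0405%) and 3 with a lower one (0.0202%), with 685 at an unadjusted p under 0.05, and for 0 genes with the trended dispersion or with limma voom and 6 with DESeq2. None of the core Treg genes was among the 9. Of the 9, Myadm and Adap1 met the rule for named genes; Igkv19-93, Igkv16-104, Ighv5-12 and Igkv4-70 are immunoglobulin segments, and Gm4294, Gm10240 and Naip6, named here after their values were seen, complete the count. Myadm, a membrane protein gene of haematopoietic cells, was at 27.0 to 35.8 CPM in WT at d30 and 22 to 54.2 CPM at d120, and at 38.3 to 55.6 and 9.61 to 13.4 CPM in SOD1, a difference between the changes of -2.12 ± 0.46 (adjusted p = 0.0135). Adap1 went from 11.9 to 18.4 CPM to 26.6 to 34.7 CPM in WT and from 22 to 33.7 CPM to 9.71 to 16.8 CPM in SOD1, a difference of -2.05 ± 0.46 (adjusted p = 0.0197).

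The day differences were set beside those of the CD4 libraries of the same days. In 1 fit of all 23 libraries and 15725 genes, the CD4 libraries had 4198 genes called between the days (26.7%), 1716 higher (10.9%) and 2482 lower (15.8%). The day difference of Treg libraries differed from that of CD4 libraries for 554 genes (3.52%), 422 of them higher in Treg (2.68%) and 132 lower (0.839%), and for 127 and 35 with the trended dispersion. The median difference over all genes was 0.14. With DESeq2, where it was 0.011, 470 were higher and 278 lower. Mitochondrially encoded transcripts had a median change of 1.59 in CD4 libraries and ribosomal protein genes one of 0.71, against 1.04 and 0.06 in Treg libraries fitted alone. The part of scaling and of library make-up in these counts was not tested. The differences called between the cells below are calls with a dispersion per gene. Most of the 554 were not called with the trended one. Of the 15 genes with the smallest p that were higher in Treg, all 15 were also called higher in CD4 libraries, and none differed between the cells by the test. Cables1 changed by 3.73 in CD4 (Treg minus CD4 0.65, 95% interval -0.30 to 1.59) and Ddit3 by 3.12. Of the 15 that were lower, 12 were called lower in CD4. Dntt changed by -2.46 there and Idi1 by -2.32.

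A difference between the cells was called for Pola1, which changed by -2.75 in Treg and -1.41 in CD4 libraries (difference -1.34, interval -2.10 to -0.57, adjusted p = 0.0261), and for Tln1, at -1.49 and 0.05 (difference -1.54, interval -2.49 to -0.58, adjusted p = 0.0487). Rag1 was at -0.51 in CD4 libraries, where it ran from 6.29 to 222 CPM at d120, and the difference was not called. Of the core Treg genes 2 of 20 differed. Foxp3 was at -0.24 in CD4 libraries, 1.55 below its change in Treg (interval 0.71 to 2.4, adjusted p = 0.0174), and Lrrc32 at -0.65, 2.21 below (interval 0.92 to 3.5, adjusted p = 0.0303). Neither was called with the trended dispersion (adjusted p = 0.0647 and 0.107). Ctla4 (1.1), Tnfrsf4 (1.71) and Tigit (1.5) were called higher in CD4 libraries too. Of 39 genes of mature, activated and recirculating Treg cells in this fit, 1 was higher and 2 lower in Treg minus CD4. Their median difference was -0.06 and their median change in CD4 libraries 0.31. Of all genes 2.68% were higher and 0.839% lower. Rora changed by 1.93 in CD4 libraries, with no difference called (interval of the difference -0.42 to 0.95), whereas Il1r2 differed by 2.64 (CD4 -0.78) and S1pr1 by 1.35 (CD4 0.57, from 85.4 to 127 CPM to 80.2 to 235 CPM). Gzmb and Il7r differed the other way, by -1.88 (CD4 3.46) and -1.42 (CD4 1.84).

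Of 14 genes of MHC class II presentation, by which cells show antigen to CD4 T cells, 10 were called higher in Treg minus CD4 and 0 lower, against 2.68% and 0.839% of all genes. Cd74, the invariant chain, was at 2862 to 8581 CPM in CD4 libraries at d30 and 533 to 3738 CPM at d120, a change of -1.52. In Treg libraries on the same scale it changed by 0.75, and the difference was 2.27 (interval 1.38 to 3.17, adjusted p = 0.000275). H2-Ab1 differed by 2.18 and H2-DMb2 by 2.86, and in the Treg libraries fitted alone the list had 4 genes higher and 2 lower of 14 (3 and 1 in both fits), with a median of 0.28, and 3 to 6 higher and 1 to 2 lower with 1 library left out. Class II molecules belong to B cells, dendritic cells and epithelium, whose markers are given above. B cell markers differed in the same direction for 3 of 20 genes, Fcer2a, Cd22 and Blk, and in the other for 0, against the same shares of all genes. The median difference, Treg minus CD4, was 1.87 for the B cell list and 1.78 for the class II list. The 2 medians were made up differently. In CD4 libraries the median change was -0.4 for the B cell list and -1.61 for the class II list. In Treg libraries fitted alone it was 1.56 and 0.28. Dendritic cell and macrophage markers had a median difference of 0.41 (CD4 -0.99), and thymic epithelial markers one of 1.05 (CD4 -2.37). The part of B cells, dendritic cells and epithelium in the class II values was not tested.

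Cell cycle lists had lower medians in CD4 than in Treg libraries, -1.21 for S phase and -1.78 for G2 and M phase. The difference was called for 7 S phase genes, 6 of them higher in Treg minus CD4, among them Mcm2 (1.03), Mcm5 (1.19) and Rrm2 (1.48), and 1, Pola1, lower. Of 25 G2 and M phase genes, Ccnb1 (2.14) and Ube2c (1.34) differed. Cholesterol synthesis had a median of -0.84 in CD4 libraries, against -0.82 in Treg. Of the stress response genes Chac1 differed, from 0.615 to 2.23 CPM at d30 to at most 11 CPM at d120 in CD4 libraries (adjusted p = 0.0477), as did Psat1 (0.96) and Shmt2 (1.18).

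**Figure D5:**
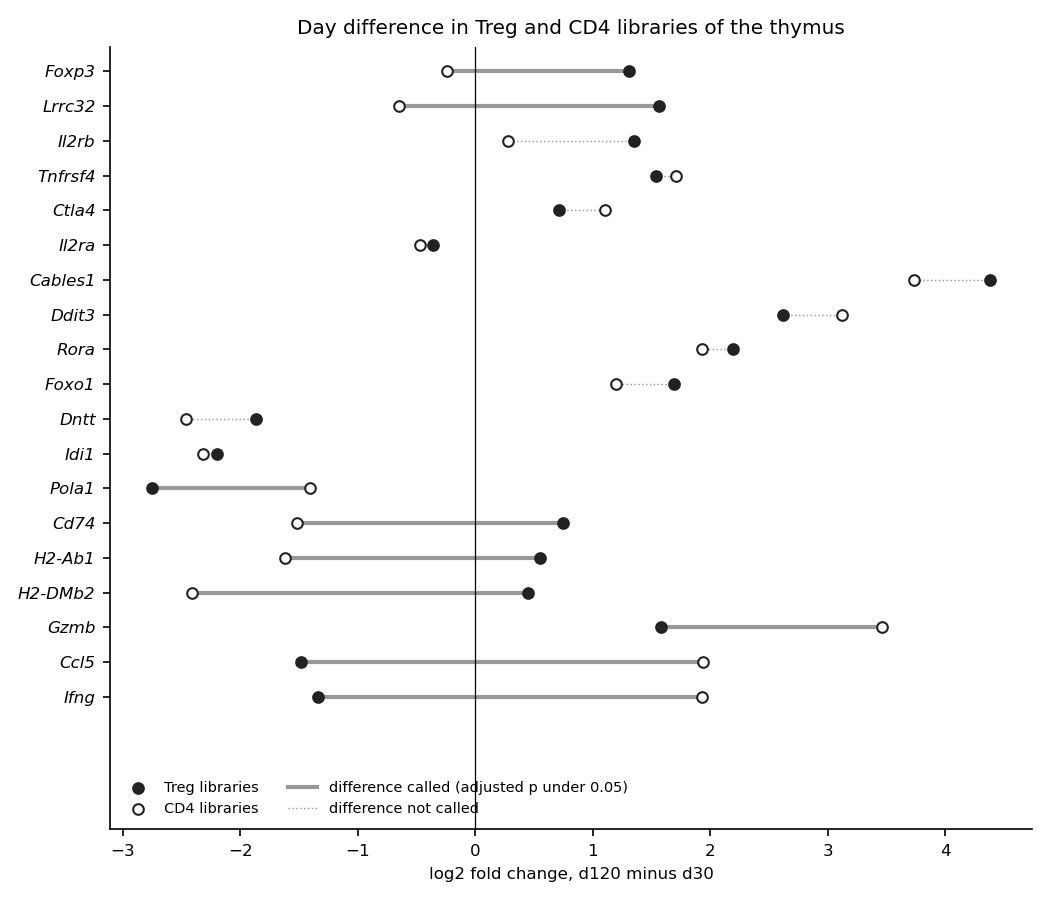
Log2 fold change between d120 and d30 of 19 genes in Treg and in CD4 libraries from 1 fit of 23 libraries, joined by a line that is thick where the difference was called. Ddit3 and Idi1 lie close together in both, and Foxp3, Lrrc32 and Cd74 far apart.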

How the data were processed

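Read counts per gene of sorted thymic cells were deposited by the authors as whole numbers, not normalized, in 1 table of 46 libraries and 55487 gene IDs, and the 12 Treg and 11 CD4 libraries were used as deposited. Per the submitters' processing notes mm10 and DESeq2 were used, at steps that are not stated. Aligner, counting software and strand setting were not given in the sources used here, so reads of overlapping and antisense genes cannot be told apart. GENCODE vM21 gave symbols and positions for 55094 IDs. Genotype and day were taken from the labels. Several column names of WT libraries at d30 carry the word SOD1, and Sod1 counts go with the labels.

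The test was edgeR 4.0.16 (R 4.3.3): glmQLFTest after glmQLFit (legacy option) on 4 groups, with dispersions estimated per gene, TMM scaling and the filterByExpr filter, and a threshold of 0.05 on Benjamini-Hochberg adjusted p. On simulated counts 21.4% of calls were false with a dispersion per gene and 5.5% with a trended one, at the same threshold, so both are shown. Few genes changed in the simulation, unlike in these data. Adjusted p-values from a dispersion per gene may therefore be too small. CPM divide counts by a library's total over the genes tested times its TMM factor. Treg were set against CD4 libraries in 1 fit of 23. Depth of 1944589 to 34151147 counts limits low genes most, and no interval was given for single counts. Alternatives were DESeq2 1.42.0, limma 3.58.1 voom with quality weights, median-of-ratios scaling, other filters and dispersions, libraries thinned to the smallest total, the replicate number as a block, either set of d120 libraries alone and each library left out. Promoters were searched in RefSeq on GRCm38.p6. Python 3.11.15, pandas 2.3.3, numpy 2.4.6, scipy 1.17.1, data.table version 1.17.8 and matplotlib 3.10.9 made tables, permutation tests and plots.

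The genes named were Foxp3, Il2ra and Sod1, per direction the 15 with the smallest adjusted p and the 10 with the largest change among called genes of at least 5 CPM (20 CPM for the largest) separated between the days, all core Treg genes and the 5 members of each other list with the smallest p. For interactions and Treg minus CD4 they were up to 10 per direction. Predicted genes and receptor segments were left out, and other list members named were chosen after their values were seen. The members and lists were chosen with earlier results of these data known. Several genes, members of the lists among them, are counted but not reported here.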

Additional observations from a re-analysis of the deposited data

Results flagged for a closer look

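Results were singled out because the day difference itself differed between groups by a test of that difference. Between the genotypes, SOD1 minus WT was -2.12 for Myadm and -2.05 for Adap1, with the levels given above, and neither difference was called with the trended dispersion.

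Between Treg and CD4 libraries, genes named by the rule differed in both directions. Higher in Treg minus CD4 were the interleukin 10 receptor chain gene Il10ra (2.94, from a change of 0.97 in Treg and -1.97 in CD4), Rasgrp3 (4.14), Rasgef1b (2.66), the adaptor gene Lat2 (2.0), Tedc1 (1.88), Dbnl (1.56) and the actin regulator gene Coro1a (1.25). In CD4 libraries Rasgrp3 (-3.2), Rasgef1b (-2.0), Lat2 (-1.2), Tedc1 (-1.9), Dbnl (-1.4) and Coro1a (-1.7) were all called lower. In Treg libraries of this fit Lat2 was called higher (0.84) and Coro1a lower (-0.47). Rasgrp3 (0.89), Rasgef1b (0.64), Tedc1 (-0.06) and Dbnl (0.14) were not called there. Nnt, the mitochondrial transhydrogenase gene, differed by 6.63, which was not called with limma voom (adjusted p = 0.0504). It was at 28.2 to 88.3 CPM in CD4 libraries at d30 and 0 to 6.65 CPM at d120, a change of -8.22. In Treg libraries it was at 40.4 to 138 CPM at d30 and 26.6 to 36.9 CPM at d120, a change of -1.59. Scin differed by 5.86, with changes of -0.89 in Treg and -6.75 in CD4.

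Lower in Treg minus CD4 were the granzyme inhibitor gene Serpinb9 (-2.81), Ccl5 (-3.42, from -1.48 in Treg and 1.94 in CD4), Ifng (-3.27), Gzmb (-1.88), Zfp672 (-2.30), Sytl3 (-2.0), Swt1 (-1.82), Nop58 (-1.57), Vgll4 (-1.47) and Nufip2 (-1.40). The chemokine, interferon and granzyme genes among them are products of activated T and NK cells. In Treg libraries of this fit Gzmb was called higher (1.58). Sytl3 (0.20), Zfp672 (-0.09) and Swt1 (-0.12) were not called there, and the others were called lower.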

How the results depend on the processing

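The 5248 genes called between the days kept their direction in every setting where they were tested, except 16 of 5239 with d120 libraries 1 to 3 alone, 15 of 5229 with 4 to 6 alone, 14 of 4897 after thinning and 1 without SOD1 d120 3. Counts higher and lower, 2763 and 2485 above, were 1368 and 1201 in the fit with CD4 libraries and 1399 and 1470 after thinning to the smallest total. With d120 libraries numbered 4 to 6 alone 2704 were higher and 3697 lower, so that 42.2% of calls were higher against 52.6%, and the median of all genes was -0.146. The trended dispersion gave 788 lower genes in SOD1, against 1283. Interactions higher and lower, 6 and 3 above, were 0 and 0 with voom and with the trended dispersion, and 2 were higher with DESeq2. For Treg minus CD4 the trended dispersion gave 127 higher and 35 lower and DESeq2 278 lower. Of 2424 values of the 203 named and called genes under other settings 2326 stayed called, 97 were no longer called and 1 reversed, Ndufs7 after thinning (-0.07 against 0.48). Sod1 changed by 0.39 over all libraries, by 0.75 with d120 libraries 1 to 3 alone, and by 0.22 to 0.58 with 1 library left out. The causes were not tested.

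With 1 library left out the day comparison gave 2269 to 2952 higher and 2083 to 2746 lower, WT 1121 to 2175 and 985 to 2082, SOD1 982 to 1871 and 826 to 1634, interactions 1 to 17 and 0 to 34, and Treg minus CD4 160 to 894 and 40 to 257. WT counts fell to 1144 and 985 without WT d30 1, to 1133 higher without WT d30 2 and 1121 without WT d30 3, and SOD1 counts to 982 and 826 without SOD1 d30 3. Interactions higher and lower were 17 and 34 without SOD1 d120 3, 17 and 12 without WT d120 1, 16 and 11 without WT d120 3, 10 and 6 without WT d30 2, and 1 and 0 without SOD1 d30 3. They were 15 higher without SOD1 d120 1 or 2, and 5, 1, 1 and 0 lower without SOD1 d30 1, SOD1 d30 2, WT d30 1 and WT d30 3. Treg minus CD4 gave 160 and 40 without WT CD4 d30 2, 894 and 233 without WT CD4 d120 1, 266 and 87 without SOD1 Treg d30 3, 255, 278 and 260 higher without SOD1 CD4 d30 3, WT Treg d30 2 and WT Treg d30 3, and 49, 225, 225 and 257 lower without WT CD4 d30 3, SOD1 CD4 d120 3, WT CD4 d120 2 and WT CD4 d120 3. An arm left with 1 library was taken to vary like the others. The difference in genes detected, 344.8, ran from -903.4 to 1354 and turned to -279.8, -32.17, -903.4 and -175.0 without SOD1 d30 2, WT d120 1, SOD1 d120 1 and SOD1 d120 2. That in mitochondrial percent ran from 0.664 to 1.22, and that in total counts from 6725000 to 12910000.

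Same-numbered libraries of the days share only a number (correlations of their deviations -0.0299 to 0.0354). For Treg with CD4 of 1 day the correlations were 0.0632 to 0.254, over 0.1 in 9 of 11 pairs, and the labels do not say whether such pairs share an animal. With animal as a random block (limma voom) 448 were higher and 178 lower in Treg minus CD4, against 422 and 132 with edgeR and no such block. Voom with quality weights and no animal block gave 320 and 153. Method and block change together here, so the effect of the block alone cannot be read from these counts. With the replicate number as a block 2678 were higher and 2610 lower between the days, 1679 and 1576 in WT, 1519 and 1342 in SOD1, 5 and 3 in the interaction and 450 and 139 in Treg minus CD4. Depth limited genes of a few CPM in the smallest libraries.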

Other observations

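The 433 tested genes of chromosome X had a median change of -0.22, while the medians of the autosomes ran from -0.13 to 0.09. Of the 433, 43 were higher and 115 lower at d120, beside 18.6% higher and 16.8% lower of all genes tested. Foxp3, which rose, and Pola1, which fell, lie on this chromosome.

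Transcript length went with the change among the 12253 tested protein-coding genes. Those with the shortest transcripts, 201 to 2207 bases, had a median of 0.13, with 25.2% higher and 11.5% lower. Those with the longest, 4741 to 123179 bases, had a median of -0.09, with 17.2% higher and 22.6% lower. The part of length in the gene groups above was not tested.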
